A study of Mus musculus with 6 samples.

Results

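The nuclear receptors are a superfamily of transcription factors, and 41 of their genes were followed here in livers that had lost estrogen receptor α (ERα), itself a member of the family. Of the 41 genes, 37 had a probe set that the annotation of the array pairs with that gene alone, out of 18820 genes measured in this way. All members with such a probe set had 1 of them, and it stands for the gene. Of the 37, 25 reached a signal of 100 (6.64 on the log2 scale) in at least 1 of the 6 arrays and were tested. The methods of the study name a filter at this signal, which can be read as at least 1 array or as all 6 arrays, and the first reading was used. Another 12 stayed below that signal in all arrays. Thra and the gene of the constitutive androstane receptor (CAR), Nr1i3, were covered only by probe sets shared with other genes and are given no value, and for Nr1h2 and Nr2e3 the annotation lists no probe set.

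Liver RNA of 3 LERKO and 3 control (CT) female mice on the C57BL/6J background was hybridized to Affymetrix Mouse Gene 1.1 ST arrays, 1 mouse per array. LERKO mice carry ERα fl/fl alleles and cre recombinase driven by the albumin promoter, and CT mice carry the same ERα fl/fl alleles without cre, so that the loss of ERα and the presence of cre cannot be told apart. The albumin promoter is active in hepatocytes, and the other cells of the liver keep their ERα alleles. How old these mice were is not given in the sources used here.

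Nuclear receptors share a DNA-binding domain with zinc fingers and a domain that binds small lipophilic ligands. Steroid receptors bind DNA mostly as homodimers, whereas many receptors for bile acids, oxysterols, fatty acids, retinoids and thyroid hormone pair with a retinoid X receptor (RXR). In the liver these receptors couple the supply of hormones, lipids and bile acids to the transcription of metabolic enzymes and transporters. A few members, such as Nr0b2, lack the DNA-binding domain and repress the receptors they bind.

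All 6 measured hepatocyte markers exceeded a signal of 100 in every array. Genes of other organs were present in a pair of arrays. The summed signal of 9 adrenal gland markers was 91.5, 7421 and 113 in the LERKO mice, against 91.2 to 91.9 in the CT mice, and 6 of the 9 exceeded a signal of 100 in LERKO replicate 2 and in no other array. The summed signal of 6 pancreas markers was 94.9 to 106 in the LERKO mice and 101, 97.6 and 1749 in CT replicates 1 to 3, and CT replicate 3 also stood out for 7 skeletal muscle markers (889) and 4 markers of squamous epithelium (1448). Per array, 9452 to 9865 of the 35556 probe sets had a signal of at least 100.

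Among the 25 nuclear receptors tested, the largest difference between LERKO and CT livers was that of Esr1, which encodes ERα. Its signal was 6.75, 7.06 and 6.77 on the log2 scale in the LERKO mice, against 8.45, 8.78 and 8.29 in the CT mice. Every LERKO mouse lay below every CT mouse, and each array carried the Esr1 level of its label. The difference was −1.65 on the log2 scale (standard error 0.15), a signal 3.13-fold lower in LERKO, with an adjusted p of 0.149 from limma over 10633 probe sets. Where the Esr1 probes lie relative to the deleted part of the gene was not known. The fold is thus that of 1 probe set and not the extent of ERα loss. Whether Esr1 passed a false discovery rate of 5% depended on how the filter is read. The adjusted p was 0.0409, with 3 probe sets called, when a signal of 100 was required in all 6 arrays. It was 0.0490 with trended and robust variances and 0.751 with no filter. Without any 1 array the difference stayed between −1.76 and −1.51. In whole liver, fewer cells of a type and less RNA per cell cannot be told apart.

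Among the 25 receptors tested, 7 had a higher and 18 a lower mean in LERKO liver, where all 6902 genes kept divide into 3208 higher (46.5%) and 3694 lower (53.5%). None passed an adjusted p of 0.05 in limma, as was the case for all genes (0%, 0 of 6902). Of the 25 receptors, 4 had an unadjusted p under 0.05, which were Esr1 (whose alleles were deleted), Nr3c1, Nr2c1 and Nr1h4, beside 6.80% of all genes and 6.98% of all probe sets. In 6 of the 25 receptors the LERKO and CT mice did not overlap (Esr1, Nr3c1, Nr2c1, Nr2c2, Ppard and Nr1h4), beside 13.7% of all genes. The LERKO mice were the lower group in 5 of these, beside 7.58% of all genes, and the higher group in 1, beside 6.13% of all genes. Without Esr1 the median difference of the other 24 was −0.05 on the log2 scale, and that of all genes was −0.01. Their median size of difference, whatever its sign, was 0.08 on the log2 scale, as it was over all genes. The median SD within a group was 0.11 for the 24 and 0.12 for all genes. The number of receptors with an unadjusted p under 0.05 changed when single mice were left out, as did the share of all genes. The number was 2 without LERKO replicate 1 (beside 3.54% of all genes), LERKO replicate 3 (4.19%), CT replicate 1 (5.91%) or CT replicate 2 (5.71%). It was 3 without LERKO replicate 2 (7.20%) and 6 without CT replicate 3 (10.7%), and Esr1 was among them each time.

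**Figure D1:**
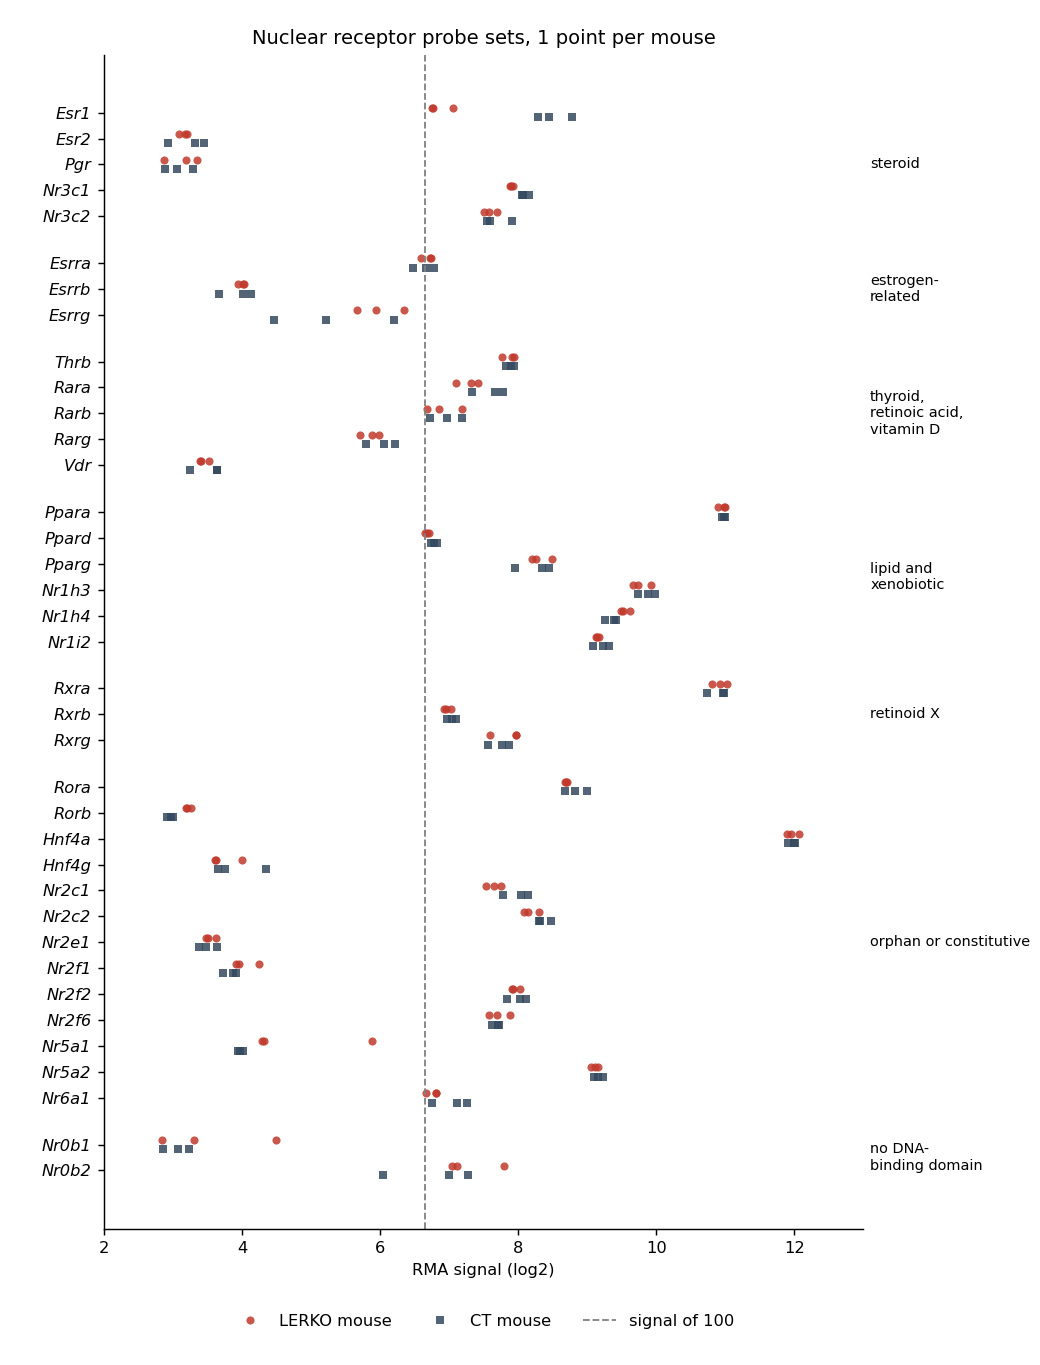
RMA signal (log2) of the 37 measured nuclear receptors, 1 point per mouse, with LERKO mice (circles) above CT mice (squares) in each row. The dashed line marks a signal of 100. The groups of Esr1 lie farthest apart, and the single LERKO points of Nr5a1 (5.89) and Nr0b1 (4.49) belong to LERKO replicate 2. Levels of different probe sets are not on a common scale.

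The confidence intervals bound what these arrays could have missed in the receptors that were tested. For 20 of the 24 receptors other than Esr1, the 95% confidence interval from limma lay within a 1.5-fold change in either direction, and for 23 within a 2-fold change. The 4 receptors with wider bounds were Nr0b2, Rara, Nr2c1 and Nr6a1. These are intervals for single genes and are not adjusted for the number of genes.

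**Figure D2:**
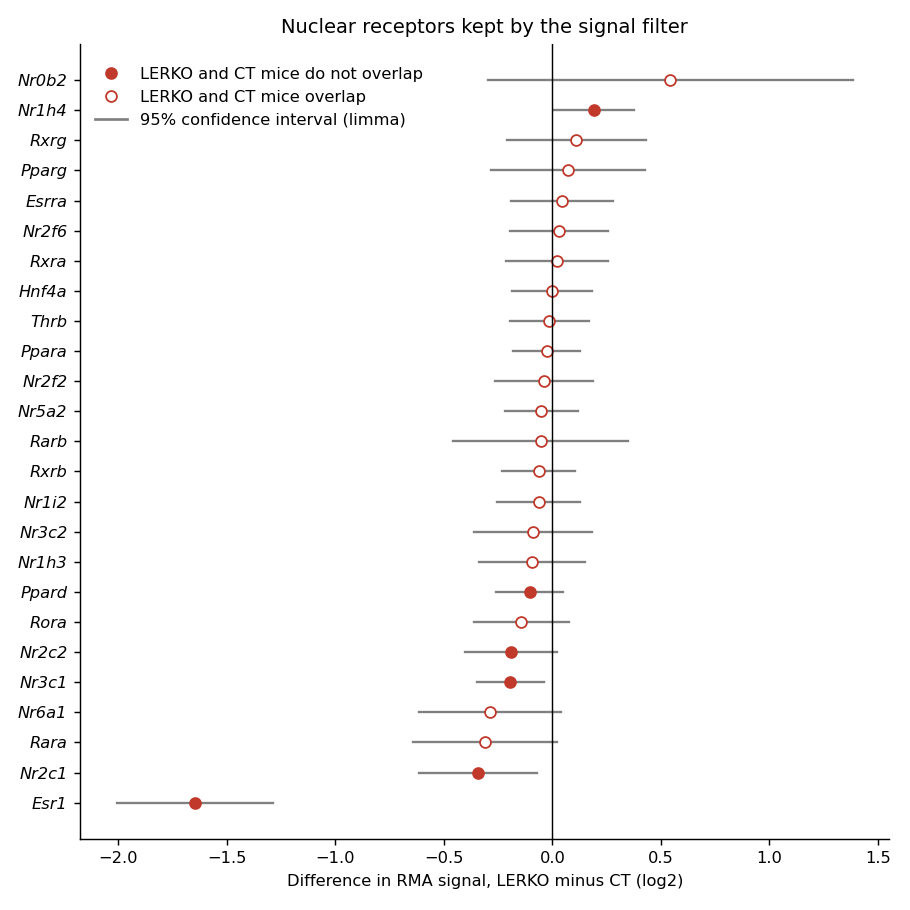
Difference in RMA signal (LERKO minus CT, log2) of the 25 nuclear receptors tested, with 95% confidence intervals from limma. Filled points are receptors whose LERKO and CT mice do not overlap. Esr1 lies at −1.65, Nr0b2 has the widest interval (−0.30 to 1.38), and the intervals of 20 of the other receptors stay within 1.5-fold of 0.

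The other steroid receptors had small differences or signals below 100. Nr3c1, the glucocorticoid receptor, was at 7.93, 7.89 and 7.89 in the LERKO mice and at 8.16, 8.06 and 8.08 in the CT mice, on the log2 scale. The groups did not overlap, and the spread within each was small (SD 0.02 in LERKO and 0.05 in CT, n = 3 each). The difference was −0.20 (95% confidence interval −0.35 to −0.04, unadjusted p = 0.0207 and adjusted p = 0.703 from limma), and with 1 array left out the unadjusted p reached up to 0.0704. Nr3c2, the mineralocorticoid receptor, was at 7.51 to 7.69 in LERKO and at 7.55 to 7.91 in CT, with overlapping groups (difference −0.09, 95% confidence interval −0.36 to 0.18).

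Esr2, which encodes estrogen receptor β, the second nuclear receptor for estradiol, was at 3.20, 3.08 and 3.17 in the LERKO mice, against 3.44, 2.93 and 3.32 in the CT mice. All 6 values were far below a signal of 100, and the groups overlapped. Pgr, the progesterone receptor, an estrogen-induced gene of the reproductive tract, was at 3.34, 2.87 and 3.19 in LERKO and at 2.89, 3.05 and 3.28 in CT. It too was dim in all mice, with overlapping groups, so that these arrays give no test of either gene.

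The estrogen-related receptors resemble ERα in sequence but do not bind estradiol, and serve mitochondrial energy metabolism. Esrra lay just inside the signal filter, with 4 of 6 arrays at 100 or more. Its values were 6.60, 6.72 and 6.74 in LERKO and 6.67, 6.78 and 6.47 in CT (difference 0.04, 95% confidence interval −0.19 to 0.28). Esrrg lay just outside the filter. It was at 5.94, 5.67 and 6.35 in the LERKO mice and at 6.20, 4.46 and 5.22 in the CT mice, so that the groups overlapped and CT replicate 2 was the lowest. Its mean difference of 0.69 became 0.27 without CT replicate 2. Esrrb was at 3.67 to 4.14 over all mice.

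Of the receptors for thyroid hormone, retinoic acid and vitamin D, 3 were tested and 0 had an unadjusted p under 0.05 in limma. Thrb, the main thyroid hormone receptor of hepatocytes, was at 7.91, 7.77 and 7.95 in LERKO and at 7.94, 7.90 and 7.83 in CT. The difference of −0.01 had a 95% confidence interval of −0.20 to 0.17. Rara, a retinoic acid receptor, was at 7.42, 7.10 and 7.32 in the LERKO mice, against 7.78, 7.66 and 7.34 in the CT mice. Only CT replicate 3 reached into the range of the LERKO mice, and the difference was −0.31 (95% confidence interval −0.64 to 0.02, unadjusted p = 0.0630, adjusted p = 0.703). Without CT replicate 3 the difference was −0.44 with an unadjusted p of 0.00998 from limma, where 10.7% of all genes had one under 0.05. The difference of Rara was −0.22 without CT replicate 1 (unadjusted p = 0.187 from limma) and −0.22 without LERKO replicate 2 (unadjusted p = 0.186). Rarb, which is itself induced by retinoic acid, lay between 6.68 and 7.19 in both groups. Rarg stayed at 6.22 or less and Vdr, the vitamin D receptor, at 3.64 or less.

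Among the sensors of lipids, bile acids and foreign compounds, 6 were tested, of which 2 had a higher and 4 a lower mean in LERKO. Nr1h4 encodes the farnesoid X receptor (FXR), the bile acid sensor of the liver. It was at 9.52, 9.49 and 9.63 in the LERKO mice and at 9.38, 9.27 and 9.41 in the CT mice. The groups did not overlap, and the difference was 0.19 (95% confidence interval 0.01 to 0.37, unadjusted p = 0.0427, adjusted p = 0.703). With 1 array left out the difference ranged from 0.15 to 0.22 and the unadjusted p reached up to 0.136.

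Ppara, the fatty acid sensor that induces fatty acid oxidation, had overlapping groups. Its values were 10.98, 10.89 and 10.99 in LERKO and 10.99, 10.96 and 11.00 in CT. The difference of −0.03 had a 95% confidence interval of −0.18 to 0.13. Ppard, a broadly expressed receptor of the same subfamily, was at 6.65, 6.68 and 6.71 in the LERKO mice, against 6.83, 6.74 and 6.79 in the CT mice. These groups did not overlap, but lay just above a signal of 100 and differed by −0.10 only (95% confidence interval −0.26 to 0.05). Pparg, the receptor that drives fat storage, was at 8.20 to 8.49 in LERKO and at 8.44, 7.95 and 8.34 in CT, where replicate 2 was the lowest of all mice.

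Nr1h3, the oxysterol sensor LXRα, and Nr1i2, the pregnane X receptor (PXR) that induces drug metabolism, had overlapping groups. Their differences were −0.09 (95% confidence interval −0.34 to 0.15) for Nr1h3 and −0.06 (95% confidence interval −0.26 to 0.13) for Nr1i2. The RXR genes, partners of all these sensors, were close to 0 as well. Rxra was at 11.03, 10.81 and 10.92 in LERKO and at 10.99, 10.97 and 10.74 in CT. Its difference of 0.02 had a 95% confidence interval of −0.21 to 0.25. Rxrb and Rxrg had −0.06 and 0.11, with intervals that held 0.

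The orphan and constitutive receptors made up 8 of the 25, and 7 of the 8 had a lower mean in LERKO. Nr2c1 and Nr2c2 encode the testicular receptors TR2 and TR4, which bind each other and mostly repress direct repeats of the receptor half-site. Nr2c1 was at 7.53, 7.75 and 7.65 in the LERKO mice, against 7.78, 8.04 and 8.14 in the CT mice. No LERKO mouse reached the lowest CT mouse, with a difference of −0.34 (95% confidence interval −0.61 to −0.07, unadjusted p = 0.0206, adjusted p = 0.703), and with 1 array left out the unadjusted p reached up to 0.0694. Nr2c2 was at 8.08, 8.30 and 8.15 in LERKO and at 8.31, 8.32 and 8.47 in CT. The groups were barely apart, since LERKO replicate 2 lay next to CT replicate 1, and they overlapped once the arrays were centred on their medians or normalized by cyclic loess. The difference of Nr2c2 was −0.19 (95% confidence interval −0.40 to 0.02, unadjusted p = 0.0681).

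Nr6a1, the germ cell nuclear factor, was at 6.81, 6.81 and 6.66 in LERKO and at 7.12, 7.26 and 6.76 in CT. CT replicate 3 fell among the LERKO mice, and the difference of −0.29 (unadjusted p = 0.0766 from limma) became −0.43 without that array (unadjusted p = 0.00381). Without CT replicate 3, 10.7% of all genes had an unadjusted p under 0.05. The difference of Nr6a1 was −0.18 without CT replicate 2 (unadjusted p = 0.216 from limma) and −0.24 without LERKO replicate 3 (unadjusted p = 0.196). Rora, a receptor that activates clock and lipid genes, averaged 8.69 ± 0.01 in LERKO and 8.84 ± 0.16 in CT (SD, n = 3 each). The LERKO mice were alike, CT replicate 3 matched them, and the difference was −0.14 (95% confidence interval −0.36 to 0.08). It was −0.22 without CT replicate 3 (unadjusted p = 0.0404 from limma) and −0.06 without CT replicate 2.

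The receptors that define the hepatocyte differed little. Hnf4a, a master regulator of hepatocyte genes, was at 12.07, 11.90 and 11.95 in the LERKO mice and between 11.91 and 12.02 in the CT mice. Both means rounded to 11.97, and the 95% confidence interval of −0.18 to 0.18 allowed a change of at most 1.13-fold upward. Nr5a2, the liver receptor homolog 1 (LRH-1) of bile acid synthesis, was at 9.11, 9.06 and 9.16 in LERKO and at 9.23, 9.15 and 9.10 in CT (difference −0.05, 95% confidence interval −0.22 to 0.12). Nr2f2 and Nr2f6 had differences of −0.04 and 0.03. Rarb and Nr2f2 are also expressed in stellate cells. Over 7 stellate cell markers, of which 6 reached a signal of 100, the summed signal ranged from 3820 to 4529 in LERKO and from 3587 to 5039 in CT, and its part in these values was not tested.

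Nr0b2 encodes the small heterodimer partner (SHP), which FXR induces and which represses bile acid synthesis by binding LRH-1. Among the 24 receptors other than Esr1 it had the largest mean difference and the largest spread. Its signal was 7.79, 7.04 and 7.11 in the LERKO mice, against 6.99, 6.04 and 7.28 in the CT mice. The groups overlapped, and CT replicate 2 alone lay below a signal of 100. The difference was 0.54 (standard error 0.35, 95% confidence interval −0.30 to 1.38, adjusted p = 0.781 from limma), and it was 0.18 without CT replicate 2 and 0.80 without CT replicate 3. Without LERKO replicate 1, the mouse in which Nr0b2 was highest, it was 0.30. The higher mean in LERKO thus rested in large part on CT replicate 2 and LERKO replicate 1.

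CT replicate 2 was also the lowest of the 6 mice for Pparg, for Nr1h4 and for Esrrg. Without CT replicate 2 the difference of Nr1h4 was 0.15 (unadjusted p = 0.112 from limma). The same mouse had the lowest summed signal of the markers of Kupffer cells (2181), liver endothelial cells (3162) and stellate cells (3587). Its sum of lymphocyte markers was also the lowest (74.4, all 4 markers below a signal of 100). Other markers went the other way. CT replicate 2 had the highest sum of hepatocyte markers (51362) and of 5 cholangiocyte markers (220, against 152 to 191 in the other mice). Of those 5, only 1 reached a signal of 100. The endothelial marker Lyve1 was likewise highest in this mouse (7.89). Over all 24 receptors it was the lowest mouse for 3 (12.5%), and over all genes for 17.0%. LERKO replicate 2, the array with adrenal markers, was the lowest mouse for 8 of the 24 receptors (33.3%) and the highest for 0, while over all genes it was the lowest for 13.3% and the highest for 10.9%. The part of cell composition in these values was not tested.

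Promoter sequences are shown for Nr0b2 and its regulator Nr1h4, and for the related Nr2c1 and Nr2c2, which had the same sign of difference. The sequences hold the 250 bases before the annotated gene start (RefSeq, GRCm38.p6), written 5′ to 3′ on the strand of the gene. Capitals mark the half-site AGGTCA that many nuclear receptors bind and the core TCAAGG of the site that LRH-1 binds, on either strand.
Nr0b2, chr4:133553126-133553375, plus strand: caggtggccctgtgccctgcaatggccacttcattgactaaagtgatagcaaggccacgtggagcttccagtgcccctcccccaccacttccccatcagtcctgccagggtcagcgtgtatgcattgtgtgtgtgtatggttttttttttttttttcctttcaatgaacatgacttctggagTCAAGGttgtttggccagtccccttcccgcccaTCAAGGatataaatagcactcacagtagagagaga
Nr1h4, chr10:89506659-89506908, minus strand: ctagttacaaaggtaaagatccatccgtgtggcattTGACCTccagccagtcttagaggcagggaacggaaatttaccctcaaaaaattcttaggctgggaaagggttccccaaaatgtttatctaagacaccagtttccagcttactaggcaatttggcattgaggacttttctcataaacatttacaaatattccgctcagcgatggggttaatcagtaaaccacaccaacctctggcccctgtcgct
Nr2c1, chr10:94147681-94147930, plus strand: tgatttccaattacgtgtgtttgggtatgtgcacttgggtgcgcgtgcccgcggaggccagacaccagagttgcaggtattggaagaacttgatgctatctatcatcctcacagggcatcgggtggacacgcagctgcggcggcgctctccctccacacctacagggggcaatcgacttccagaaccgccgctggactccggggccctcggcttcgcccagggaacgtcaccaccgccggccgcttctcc
Nr2c2, chr6:92092183-92092432, plus strand: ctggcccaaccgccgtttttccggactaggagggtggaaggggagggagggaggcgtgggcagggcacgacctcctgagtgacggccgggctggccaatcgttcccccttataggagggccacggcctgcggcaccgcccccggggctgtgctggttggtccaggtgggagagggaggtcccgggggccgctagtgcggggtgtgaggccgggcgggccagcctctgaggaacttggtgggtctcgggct
The Nr0b2 promoter held TCAAGG on the plus strand, starting 68 and 35 bases before the gene start, and no AGGTCA. The Nr1h4 promoter held AGGTCA once, on the minus strand, at 214 bases before the start. Neither motif was found in the windows of Nr2c1 and Nr2c2. Of all 32851 promoters, 14.0% held AGGTCA and 12.5% held TCAAGG, with overlaps between the motifs allowed. Of the 58 promoters listed for 37 of the receptor genes, 10 held AGGTCA and 6 held TCAAGG. These genes are not the same 37 as those measured, since they include Nr1i3, Nr1h2 and Nr2e3. The palindromic estrogen response element, GGTCA and TGACC with 3 bases between them, occurred in 0 of these 58 promoters and in 21 of all promoters (0.0639%). A match describes letters in this window and is not a measured site.

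The steroidogenic receptors stayed below a signal of 100 in all arrays and were highest in 1 of them. Nr5a1, the steroidogenic factor 1 that drives adrenal and gonadal steroid synthesis, was at 4.28, 5.89 and 4.31 in the LERKO mice, against 3.94, 4.02 and 3.97 in the CT mice. Nr0b1, a repressor that the adrenal gland expresses with Nr5a1, was at 3.30, 4.49 and 2.84 in LERKO and at 2.86, 3.07 and 3.23 in CT. Both genes were highest in LERKO replicate 2. The same array held the adrenal genes Cyp21a1 at 11.67 and Star at 10.33, and Th, an enzyme of the adrenal medulla, at 7.61. Without LERKO replicate 2 the mean difference of Nr5a1 changed to 0.32 instead of 0.85, and that of Nr0b1 to 0.01 instead of 0.49. The remaining LERKO and CT mice still did not overlap for Nr5a1, at signals below 100 throughout.

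**Figure D3:**
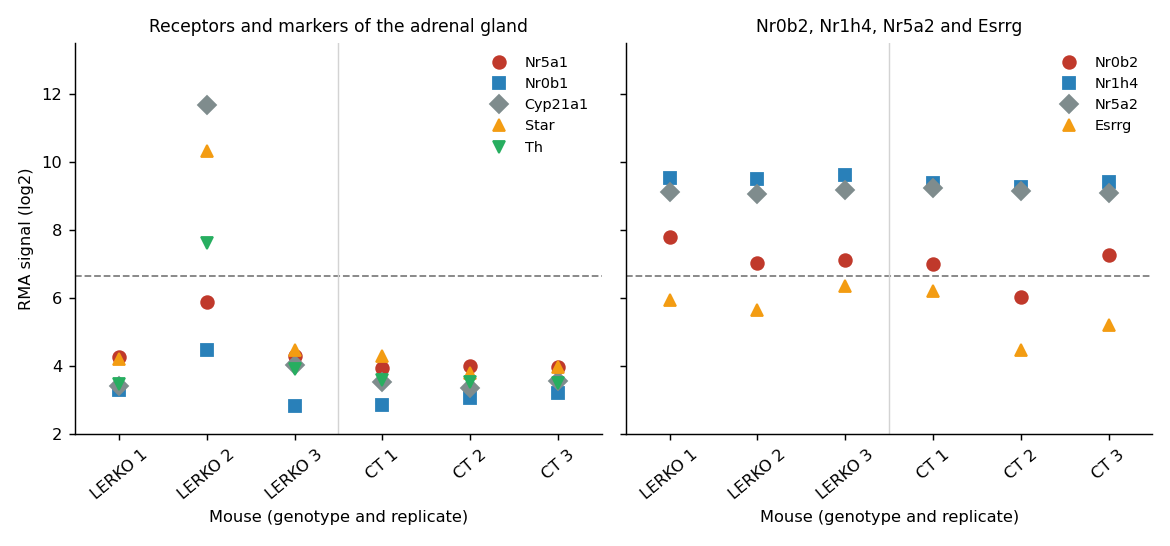
RMA signal (log2) in each mouse, LERKO replicates 1 to 3 and then CT replicates 1 to 3, with a dashed line at a signal of 100. Left, the adrenal receptors Nr5a1 and Nr0b1 are highest in LERKO replicate 2, the array in which the adrenal markers Cyp21a1, Star and Th exceed 100. Right, Nr0b2, Esrrg and Nr1h4 are lowest in CT replicate 2 (6.04, 4.46 and 9.27), and Nr1h4 and Nr5a2 stay between 9.06 and 9.63.

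Among the other dim members, Rorb, a receptor of retina and brain, was at 3.20, 3.19 and 3.26 in LERKO and at 2.91, 3.00 and 2.98 in CT. Nr2f1, a developmental receptor, was at 4.25, 3.91 and 3.95 in LERKO and at 3.73, 3.91 and 3.86 in CT. In both the groups did not overlap, by a narrow margin for Nr2f1, with all values far below a signal of 100. Fitted without a filter over 35556 probe sets, the adjusted p was 0.944 for each. Hnf4g and Nr2e1 stayed at 4.34 or less, with overlapping groups.

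Target genes of the receptors were then set beside the receptors themselves. The target lists were chosen with earlier results of these data known, so that their counts are a description and no independent test. Of 84 target genes kept that are no receptors, 13 had an unadjusted p under 0.05 in limma, 12 with a higher and 1 with a lower level in LERKO, beside 2.75% of all genes higher and 4.04% lower. None passed an adjusted p of 0.05 over all probe sets, the smallest being 0.371. The count of 13 stood beside 6.80% of all genes in either direction, and both changed when arrays were left out. The count was 6 without LERKO replicate 1 (beside 3.54% of all genes) and 7 without LERKO replicate 3 (4.19%). It was 23 without LERKO replicate 2 (7.20%) and 28 without both LERKO replicate 2 and CT replicate 3 (10.46%). The methods' t-test gave 5, beside 4.55% of all genes.

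Targets of estrogen receptor lay on both sides of 0, with 3 of 6 genes higher, 3 lower and a median of 0.03 on the log2 scale. Xbp1, a transcription factor of the unfolded protein response that estrogen induces in breast cells, was at 10.60, 10.55 and 10.36 in LERKO and at 10.84, 10.90 and 10.88 in CT. Each LERKO mouse was lower than each CT mouse (difference −0.37, standard error 0.08, unadjusted p = 0.00342, adjusted p = 0.703). Ccnd1, the cell cycle gene of cyclin D1, had a difference of 0.40 (unadjusted p = 0.0393), and 0.26 without LERKO replicate 1 (unadjusted p = 0.112). Greb1, Tff1 and Ltf, estrogen-induced genes of breast and uterus, and Ccn5 stayed below a signal of 100 in all mice.

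Targets of PPARα had a median of 0.26 while Ppara itself differed by −0.03. Of 16 genes, 15 were higher by mean and 1 lower, and 5 had an unadjusted p under 0.05, all of them higher, beside 2.75% of all genes. This count was 1 without LERKO replicate 1, beside 3.54% of all genes in either direction. It was 2 without LERKO replicate 3 (4.19%) and 9 without LERKO replicate 2 (7.20%). Cpt2, which carries fatty acids into β-oxidation, was at 10.81, 10.57 and 10.68 in LERKO and at 10.41, 10.45 and 10.36 in CT. All LERKO mice lay above all CT mice (difference 0.28, unadjusted p = 0.0132, adjusted p = 0.703). Vnn1, a pantetheinase strongly induced by PPARα, had a difference of 1.46 (standard error 0.48, unadjusted p = 0.0201). It was 0.95 without CT replicate 2, and the unadjusted p was 0.0626 without LERKO replicate 1 and 0.0642 without LERKO replicate 3. Cyp4a14, a fatty acid hydroxylase, had 0.64 (unadjusted p = 0.0229, and 0.0708 without LERKO replicate 1). With 1 array left out the median of the list stayed between 0.18 and 0.34. This list too was chosen with earlier results of these data known, so that its counts and median are no independent test.

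For glucocorticoid targets, 6 of 11 genes had a higher and 5 a lower mean in LERKO (median 0.03), beside −0.20 for Nr3c1. Zbtb16, a transcriptional repressor that glucocorticoids induce, was at 7.96, 8.22 and 8.28 in LERKO and at 7.01, 7.29 and 7.85 in CT. The LERKO mice were higher without overlap (difference 0.77, standard error 0.22, unadjusted p = 0.01, adjusted p = 0.703). Sgk1, a glucocorticoid-induced kinase, had −0.55 (unadjusted p = 0.0513), and −0.28 without CT replicate 2, its highest mouse. Tsc22d3, a mediator of glucocorticoid action, had 0.38 (unadjusted p = 0.0609), and 0.25 without LERKO replicate 1.

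Thyroid hormone targets had a median of 0.00 over 6 genes, which ranged from −0.20 to 0.19 with 1 array left out. Dio1, the deiodinase that is a sensitive target of thyroid hormone in liver, was at 10.04, 9.96 and 10.04 in the LERKO mice, against 9.03, 8.62 and 9.76 in the CT mice. The LERKO mice were alike and higher than all CT mice, which varied more (difference 0.87, standard error 0.27, unadjusted p = 0.0145, adjusted p = 0.703). For estrogen-related receptors, 4 of 7 targets were higher and 3 lower. Idh3a, part of mitochondrial isocitrate dehydrogenase, was at 8.45, 8.48 and 8.48 in LERKO and at 7.98, 7.76 and 7.90 in CT. Both groups were tight and did not overlap (difference 0.59, standard error 0.08, unadjusted p = 0.000174, adjusted p = 0.371). Mfn2, a protein of mitochondrial fusion, had a difference of 0.22 (unadjusted p = 0.0419, and up to 0.126 with 1 array left out).

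The FXR pathway was measured at several points. Of 4 FXR-induced genes kept, 3 had a higher and 1 a lower mean (median 0.06). Abcb4, the phospholipid exporter of the bile canaliculus, had a difference of 0.31 (unadjusted p = 0.0405, and up to 0.126 with 1 array left out) with overlapping groups, and Abcb11, the bile salt export pump, had 0.04 (unadjusted p = 0.616). All 3 genes that FXR and SHP repress had a higher mean in LERKO. Of these, Cyp7a1, which catalyses the first step of the classic bile acid pathway and in mouse is also an LXR target, was at 12.39, 12.49 and 12.57 in LERKO and at 12.05, 11.97 and 12.04 in CT. Its groups did not overlap (difference 0.46, standard error 0.07, unadjusted p = 0.000583, adjusted p = 0.703). Cyp8b1, which sets the share of cholic acid, was at 9.80, 10.36 and 10.29 in LERKO and at 10.22, 9.10 and 10.10 in CT. Its difference of 0.35 became −0.01 without CT replicate 2, and the median of these 3 genes was then 0.03. Nr0b2 (6.04), Cyp8b1, Cyp7a1 and the remaining gene, Slc10a1 (12.60), were all lowest in CT replicate 2. The repressor and these genes were thus low in the same mouse, and a link between them was not tested.

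LXR targets had a median of −0.05, with 4 of 11 genes higher and 7 lower. Srebf1, which LXR and insulin induce, had −0.38 (unadjusted p = 0.0559), which was −0.25 without LERKO replicate 1 and −0.50 without CT replicate 3 (unadjusted p = 0.0235). CAR and PXR targets had a median of 0.06, with 8 of 12 higher and 4 lower and 0 at an unadjusted p under 0.05 in limma. This count was 2 without LERKO replicate 2 (beside 7.20% of all genes) and 2 without CT replicate 1 (5.91%). The median was −0.03 without CT replicate 3. Ces2a had a difference of −0.22 (unadjusted p = 0.0903 from limma) and Cyp2c29 had 0.15 (unadjusted p = 0.113). In both the LERKO and CT mice did not overlap. Cyp2b10, the classic CAR target, was at 8.19, 9.93 and 8.76 in LERKO and at 9.85, 10.49 and 8.92 in CT. It varied by more than 1 log2 unit within each group, and the difference was −0.79 (standard error 0.54, unadjusted p = 0.185). It was −1.28 without LERKO replicate 2 (unadjusted p = 0.0345), −0.41 without LERKO replicate 1, −0.42 without CT replicate 2 and −1.21 without CT replicate 3. Without both LERKO replicate 2 and CT replicate 3 it was −1.69 (unadjusted p = 0.00221). Of 8 HNF4α targets, 6 had a higher and 2 a lower mean in LERKO (median 0.05), and of 4 retinoic acid targets 1 had a higher and 3 a lower mean (median −0.05). Of the ROR targets only Clock was kept.

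**Figure D4:**
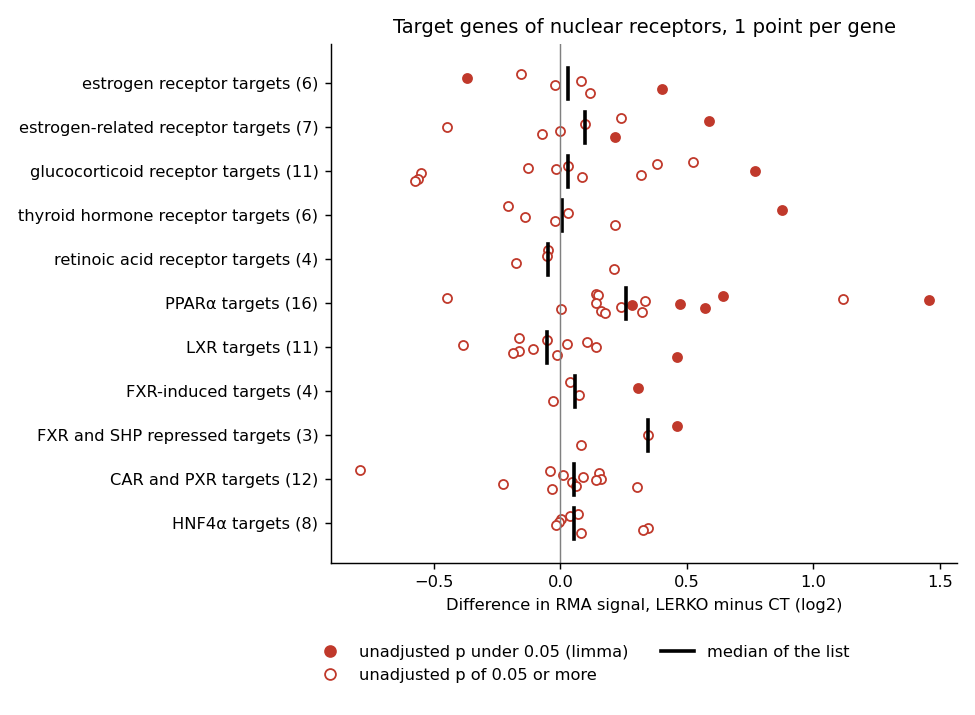
Difference in RMA signal (LERKO minus CT, log2) of target genes of nuclear receptors, 1 point per gene, with the number of genes kept in brackets and the median as a bar. Filled points have an unadjusted p under 0.05 in limma. The median lies at 0.26 for the 16 PPARα targets, 15 of which are above 0, and within 0.10 of 0 for the other lists except the 3 genes that FXR and SHP repress (0.35).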

How the data were processed

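The authors deposited log2 signals from 6 Affymetrix Mouse Gene 1.1 ST arrays, computed by robust multichip averaging (RMA) in the oligo package, which corrects background, applies quantile normalization and summarizes probes. The version is not given in the sources used here. Quantile normalization sets the arrays to 1 distribution, so that a global shift would not be seen. All columns were used. Precision is limited by the number of arrays.

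The receptors, target lists and marker lists were chosen with earlier results of these data known. Probe sets were named through the platform annotation and gene identifiers. Of 21218 probe sets with 1 gene, 21185 were found in the RefSeq gene table. A gene with more than 1 probe set was represented by that of highest mean. The methods' filter at a signal of 100 was read as at least 1 array (10633 probe sets kept), with all 6 arrays (8849) as an alternative, and genotype was tested two-sided, as the only term, by lmFit and eBayes (limma 3.58.1, R 4.3.3). Benjamini-Hochberg adjustment covered every probe set kept. The labels call the arrays biological replicates. With 3 mice per group, the smallest p of an exact permutation test is 0.10. The model was tested on simulated data.

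All receptors are named, and of each target list at most 3 genes of smallest p, except that Greb1, Tff1, Ltf and Ccn5 were named after their values were seen. Alternatives covered the filter, the probe sets fitted, the variance model, array weights, normalization, the methods' t-test, the probe set per gene, a replicate block, and omission of arrays. Motifs were searched on both strands of RefSeq promoters (GRCm38.p6).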

Additional observations from a re-analysis of the deposited data

How the results depend on the processing

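The direction of Esr1 held under all alternatives, and those of Nr3c1, Ppard, Nr1h4, Nr2c1 and Nr2c2 as well. Esr1 had an adjusted p under 0.05 in limma with a signal of 100 in all 6 arrays (difference −1.65, adjusted p = 0.0409, 3 probe sets called) and with trended and robust variances (−1.65, adjusted p = 0.0490, 2 probe sets called), against 0 probe sets called under the settings reported, where 742 have an unadjusted p under 0.05, and 0 by the methods' t-test. With 1 array left out, 0 to 1 probe sets were called, the one after leaving out LERKO replicate 3, and Esr1 ranged from −1.76 to −1.51. Receptors with an unadjusted p under 0.05 numbered 2 to 6 and target genes 6 to 23 with 1 array left out, beside 3.54% to 10.7% of all genes. Target genes numbered 5 by the methods' t-test (beside 4.55% of all genes) and 28 without both CT replicate 3 and LERKO replicate 2 (10.46%). Receptors whose groups did not overlap numbered 6 to 10 with 1 array left out, 10 without CT replicate 3, and 12 without both arrays, where fewer mice make an overlap less likely (30.1% and 44.8% of all genes). The median difference over the receptors was below 0 in all alternatives, and it moved by at most the spread between mice. Same-numbered mice did not deviate together (correlations of −0.157, −0.0731 and −0.137). With 3 mice per group this cannot settle whether the numbers pair samples, and the labels do not say. With the replicate block, 574 probe sets had an unadjusted p under 0.05 and 3 receptors did (Esr1, Nr2c1 and Nr6a1). The mean over all probe sets of a gene changed no receptor, since each has 1. Values near or below a signal of 100 limit what can be said of the 12 dim receptors.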
